A study of Homo sapiens with 6 samples.

Results

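The genes described here are 10 semaphorins, SEMA3A, SEMA3B, SEMA3C, SEMA3F, SEMA4B, SEMA4C, SEMA4D, SEMA4F, SEMA6A and SEMA7A, out of the 57905 genes counted in an RNA-seq experiment on p53 activation. They were listed by symbol, and the list was chosen from values measured in these same libraries, so that their differences between groups are given as a description, with no test of the list. All 10 passed the filter on low counts, as did 16565 genes in all. The cells were HCT116, an established line of human colorectal carcinoma with wild-type p53, and were given 10 µM Nutlin-3a, a small molecule that keeps MDM2 from binding and degrading p53. They were collected after vehicle alone (DMSO, Nut0h), after 1 h (Nut1h) and after 10 h (Nut10h) of the compound, with 2 biological replicates in each group and 6 libraries in total. All groups come from the same cell line, and Nut0h is the only vehicle group, so that time and treatment cannot be told apart.

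Semaphorins are secreted or membrane-bound proteins that share a large extracellular sema domain and were first known for steering growing axons. Class 3 members are secreted and mostly bind neuropilins, which act together with A-type plexins. Class 4 and class 6 members span the membrane and bind plexins directly, and the class 7 member is held at the membrane by a lipid anchor. Plexins signal through small GTPases to the cytoskeleton and to cell adhesion. SEMA3B and SEMA3F lie close together on the short arm of chromosome 3, in a region often lost in lung cancer, where both have been studied as tumour suppressors, and SEMA3B has been described as a p53 target.

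The libraries held between 26068076 and 35473485 counts, the lowest totals being those of the Nut1h replicates. Mitochondrial transcripts took 4.99% and 6.18% of the counts at Nut0h, 8.44% and 8.15% at Nut1h, and 6.45% and 7.06% at Nut10h. MDM2, the p53 target that encodes its inhibitor, was higher by 2.19 ± 0.13 (SE) on the log2 scale at Nut1h and by 3.75 ± 0.13 at Nut10h. CDKN1A, the cell cycle inhibitor p21, differed by 0.05 ± 0.10 at Nut1h and was higher by 3.84 ± 0.11 at Nut10h. Of 8 colorectal epithelial markers, EPCAM, KRT8, KRT18, CDH1 and CDX2 were at 430 or more normalized counts in every library, KRT20 lay between 14.0 and 35.8, and CDX1 and VIL1 did not exceed 9.7. The 4 leukocyte markers and CDH5 did not exceed 3.9 normalized counts in any library, and VWF lay between 11.0 and 22.2. Of the fibroblast markers DCN was at 0 in all libraries, PDGFRB and COL1A2 did not exceed 34.8, and COL1A1 lay between 782 and 1394. COL1A2 was at 23.3 in Nut10h replicate 2 and did not exceed 1.0 elsewhere. Of the neuronal markers SNAP25 and STMN2 did not exceed 5.0, RBFOX3 lay between 21.3 and 62.0, and SYT1 between 1379 and 2194. On the log2 scale, with a call as defined below, PDGFRB (1.33) and SYT1 (0.50) were called higher at Nut10h. RBFOX3 (-0.99) and EPCAM (-0.32) were called lower then, and the other tested markers were not called. At Nut1h SYT1 (0.50), EPCAM and CDH1 were called higher, and RBFOX3 (-0.87), COL1A1 (-0.78), KRT8, KRT18 and CDX2 lower. The transcripts called higher then had a GC content of 38.4% (SYT1) to 48.2% (CDH1). Those called lower had 55.7% (KRT18) to 61.5% (COL1A1). Nut1h values ran with GC content over all tested genes, as described below, and marker values corrected for it are not given here. In whole-culture RNA, fewer cells that express a gene and less of its RNA per cell cannot be told apart.

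One property of the transcripts moved with the Nut1h values. Across all tested genes the log2 fold change at Nut1h ran with the GC content of the transcript, GC-rich transcripts being lower and GC-poor ones higher: its median was 0.83 over the 757 genes within 1 percentage point of the GC content of SEMA3A and -1.22 over the 470 genes within 1 point of that of SEMA3B. The cause of that trend was not tested. Every fold change was therefore also computed with a GC-content offset, in which a smooth trend of each library on GC content is removed before the fit. The 10 semaphorins span much of the range, from 36.7% GC for SEMA3A and 37.1% for SEMA3C through 48.8% for SEMA6A, 52.4% for SEMA4D and 53.2% for SEMA4F to 60.4% for SEMA4C, 60.5% for SEMA7A, 61.1% for SEMA4B, 61.7% for SEMA3F and 64.8% for SEMA3B.

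The promoters of SEMA3F and SEMA3B, a neighbouring pair on chromosome 3 called higher at Nut10h, are shown here up to the start site, as given by RefSeq on GRCh38.p14, 5′ to 3′ on the plus strand. RefSeq gives 3 promoters for SEMA3F and 5 for SEMA3B, and the one shown for each is that whose start, found by an exact match of the sequence to GRCh37, is nearest the annotated 5′ end there, 13 and 94 bases from it. The capitals mark a match to the 10-base p53 half-site consensus, which is its own reverse complement, so that a search of 1 strand covers both, and was searched with no mismatch.
SEMA3F, chr3:50154808-50155057: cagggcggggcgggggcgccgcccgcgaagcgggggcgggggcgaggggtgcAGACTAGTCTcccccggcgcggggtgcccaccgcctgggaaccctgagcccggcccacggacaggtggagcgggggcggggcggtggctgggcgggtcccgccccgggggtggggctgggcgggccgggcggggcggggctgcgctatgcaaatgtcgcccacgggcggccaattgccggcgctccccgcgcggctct
SEMA3B, chr3:50267402-50267651: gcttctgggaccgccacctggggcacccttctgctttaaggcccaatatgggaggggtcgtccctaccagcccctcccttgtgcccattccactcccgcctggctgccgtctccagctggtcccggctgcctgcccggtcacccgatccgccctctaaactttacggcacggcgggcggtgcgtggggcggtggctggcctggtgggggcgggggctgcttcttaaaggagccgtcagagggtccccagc

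These stretches are 82.0% and 68.8% GC. The SEMA3F half-site starts 198 bases before the start site, and none was found in the SEMA3B stretch shown. RefSeq gave 18 promoters for 8 of the 10 semaphorins, none matching SEMA3A or SEMA6A, and the half-site was in 1 of the 18, against 6.63% of 35116 promoters of the same length. A full p53 site, taken as 2 adjoining half-sites with the C and G of each core required and at most 2 mismatches in 20 positions, was found within 5000 bases of the 5′ end in 0 of the 10 semaphorins on GRCh37 and in 7.86% of 16100 tested genes. A match or its absence describes only the letters in these windows.

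At Nut10h, 5 of the 10 semaphorins were called higher than at Nut0h, 0 were called lower and 5 were not called, where a gene is called when its adjusted p by the quasi-likelihood test of edgeR does not exceed 0.05. For comparison, 29.0% of all tested genes were called, 14.1% higher and 14.9% lower. The count of semaphorins called lower was also 0 at an unadjusted p under 0.05 and 0 by DESeq2. The 5 called higher were the secreted SEMA3B, SEMA3C and SEMA3F, the transmembrane SEMA6A and the lipid-anchored SEMA7A, and no class 4 member was among them. At Nut1h, 1 semaphorin, SEMA3A, was called higher, 6 were called lower and 3 were not called, against 66.9% of all tested genes called, 34.5% higher and 32.3% lower. Between the treated groups, 8 semaphorins were called higher at Nut10h than at Nut1h and 1 lower, against 67.9% of all genes, 34.2% higher and 33.7% lower. Their median log2 fold change was 0.31 at Nut10h, against 0.00017 over all tested genes, and -0.43 at Nut1h, against 0.05. With the GC-content offset the Nut10h median was 0.28, against -0.03 over all tested genes, and that at Nut1h was -0.01, against -0.02. With it 5 semaphorins were called higher and 1 lower at Nut10h, against 16.8% and 22.5% of all tested genes (39.2% in either direction). At Nut1h 2 were called higher and 4 lower with the offset, against 20.5% and 24.9% (45.4% in either direction). Between the treated groups 6 were called higher and 3 lower with it, against 28.8% and 29.0% (57.8% in either direction), and the median was 0.74 without the offset and 0.48 with it, against -0.02 and -0.01 over all tested genes. Both comparisons with Nut0h use the same 2 control libraries.

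**Figure D1:**
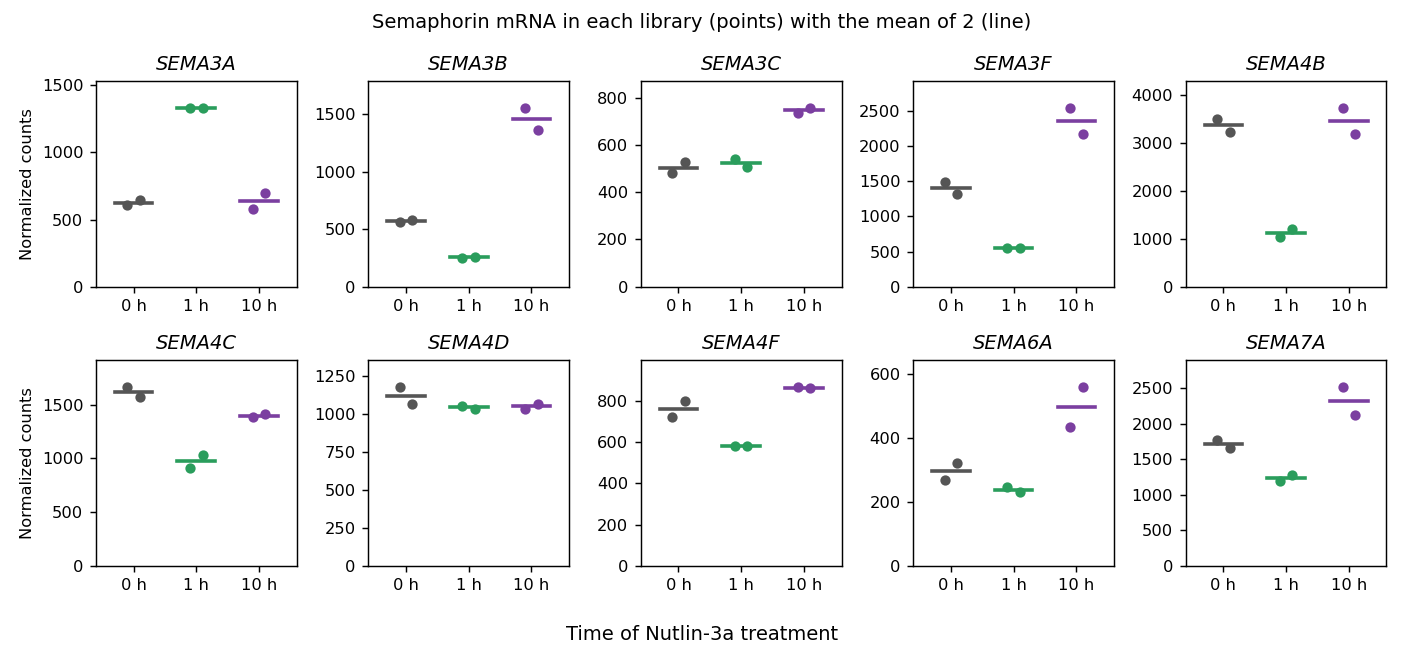
Normalized counts (y axes, from 0, with a scale for each gene) of the 10 semaphorins at 0, 1 and 10 h of Nutlin-3a; each point is 1 library and each line the mean of 2. SEMA3B and SEMA3F are lowest at 1 h and highest at 10 h, SEMA3A is highest at 1 h, and SEMA4D hardly moves.

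SEMA3B (GRCh37, chr3:50304990-50314977, plus strand), a secreted semaphorin that signals through neuropilins, had the largest difference of the 10 at Nut10h. Its normalized counts were 559.5 and 578.5 at Nut0h, 251.8 and 258.0 at Nut1h, and 1556 and 1359 at Nut10h. No 2 groups overlapped, Nut1h being the lowest and Nut10h the highest. Against Nut0h, its log2 fold change was 1.36 ± 0.11 (SE) at Nut10h, a 2.56-fold higher level, and -1.16 ± 0.12 at Nut1h. The Nut10h value was 1.38 with the GC-content offset and lay between 1.26 and 1.47 over 16 other settings, which include leaving out each library in turn. The Nut1h value turned to 0.10 with the offset and lost its call, and the 470 tested genes within 1 percentage point of its GC content had a median of -1.22 there. Between the treated groups SEMA3B was 5.72-fold higher at Nut10h, a log2 fold change of 2.52 that was 1.29 with the offset. Of its exonic bases, 7 are shared with the antisense SEMA3B-AS1, and whether the counting used strand is not given in the sources used here.

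SEMA3F (chr3:50192478-50226508, plus strand), another secreted ligand with a preference for NRP2, was counted at 1487 and 1323 at Nut0h, 556.8 and 550.0 at Nut1h, and 2545 and 2178 at Nut10h. As for SEMA3B, the 3 groups did not overlap and stood in the same order. Its log2 fold change was 0.75 ± 0.11 at Nut10h and -1.34 ± 0.11 at Nut1h. With the offset these were 0.75 and -0.36, and both stayed called. The 784 genes of like GC content had a median of -0.95 at Nut1h, so that SEMA3F lay below their lower quartile of -1.24. At Nut10h the same genes had a median of -0.04. Of its exonic bases, 2.28% are shared with the antisense SEMA3F-AS1.

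SEMA3C (chr7:80371854-80551675, minus strand), a secreted ligand with roles in heart and vessel development, was the third class 3 member called higher at Nut10h. It was counted at 481.2 and 526.8 at Nut0h, 538.8 and 505.9 at Nut1h, and 734.8 and 756.5 at Nut10h. The Nut0h and Nut1h libraries overlapped and both Nut10h libraries stood above them. It was higher by 0.56 ± 0.11 on the log2 scale at Nut10h, and by 0.53 with the offset. At Nut1h its log2 fold change was 0.05 ± 0.11 and not called, while the 886 genes of like GC content had a median of 0.79. With the offset it was -0.76 and called lower.

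SEMA3A (chr7:83585093-84122040, minus strand), the classical axon-repelling semaphorin that binds NRP1, was the 1 listed semaphorin called higher at Nut1h. Its normalized counts were 604.9 and 644.2 at Nut0h, 1331 and 1328 at Nut1h, and 577.2 and 699.8 at Nut10h. Only the Nut1h libraries stood apart, above the other 4. Its log2 fold change was 1.09 ± 0.11 at Nut1h and 0.03 ± 0.11 at Nut10h. The 757 genes of like GC content had a median of 0.83 at Nut1h, and with the offset SEMA3A differed by 0.25 there and stayed called. It was 0.480 times as high at Nut10h as at Nut1h, or -0.26 on the log2 scale with the offset. SEMA3A and SEMA3C are nearly equal in GC content, while their Nut1h log2 fold changes were 1.09 and 0.05.

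SEMA7A (chr15:74701630-74726299, minus strand), which binds PLXNC1 and integrins, was counted at 1773 and 1653 at Nut0h, 1189 and 1276 at Nut1h, and 2516 and 2116 at Nut10h. The 3 groups did not overlap, and the Nut10h replicates differed from each other more than those of the other groups. SEMA7A differed on the log2 scale by 0.43 ± 0.10 at Nut10h and by -0.48 ± 0.11 at Nut1h. The Nut10h value was 0.42 with the offset and between 0.31 and 0.57 when 1 library was left out. The Nut1h value became 0.39 with the offset, called in the opposite direction, where 943 genes of like GC content had a median of -0.88. Between the treated groups the difference of 0.91 ± 0.11 became 0.03 with the offset and was no longer called.

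SEMA6A (chr5:115779251-115910519, minus strand), a transmembrane ligand of A-type plexins, was the least abundant of the 10. It was counted at 269.6 and 323.0 at Nut0h, 245.8 and 230.3 at Nut1h, and 434.1 and 560.2 at Nut10h. Both Nut10h libraries stood above the other 4, though they differed from each other more than the replicates of the other groups. At Nut10h the log2 fold change was 0.75 ± 0.14, and 0.56 without Nut10h replicate 2. At Nut1h it was -0.31 ± 0.15 and not called, a call that depended on the fit. It was called lower without Nut0h replicate 1, without Nut10h replicate 1 or without Nut10h replicate 2. The same held with the GC-content offset, at -0.41, with an offset for length, with no low-count filter and in a fit of Nut0h and Nut1h alone. It also held with the replicate number as a block once the Nut1h numbers were crossed, a setting chosen after seeing the data. Of its exonic bases, 2.99% are shared with its antisense genes.

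**Figure D2:**
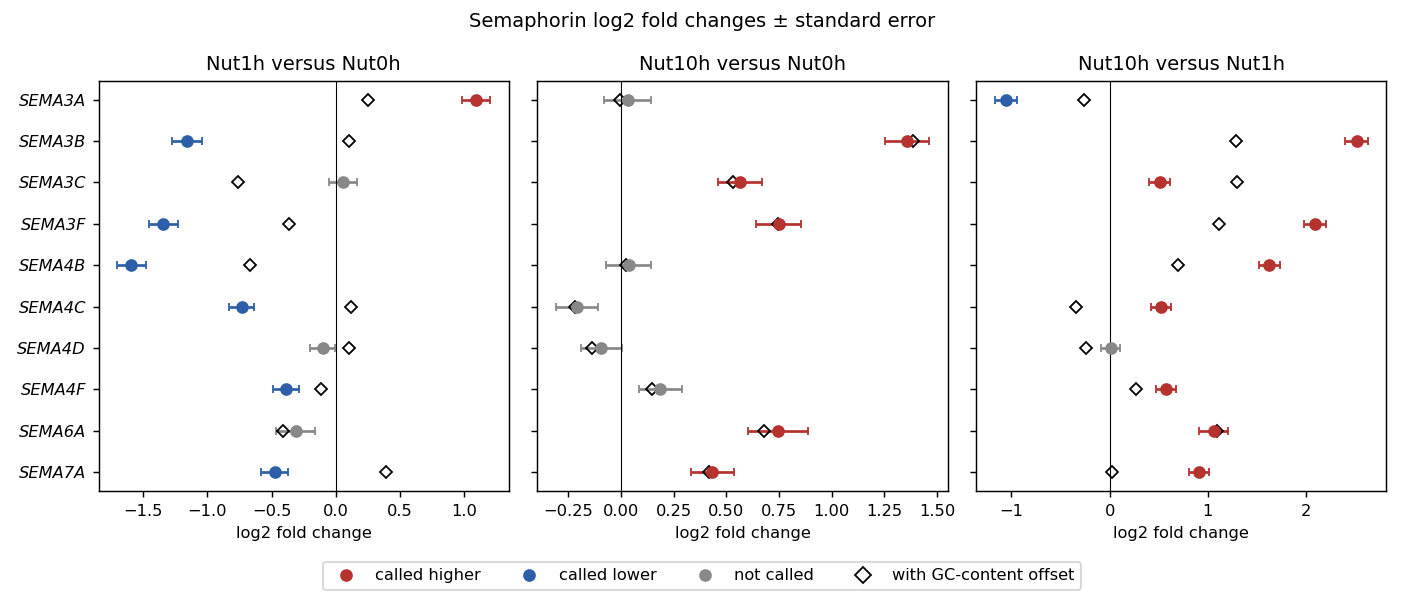
Log2 fold changes (x axes) of the 10 semaphorins with their standard errors in each comparison, red where called higher, blue where called lower and grey where not called; open diamonds give the value with the GC-content offset. At Nut10h against Nut0h the diamonds lie on or near the points, while at Nut1h SEMA3B, SEMA3C, SEMA4C, SEMA4D and SEMA7A change sides of 0.

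The class 4 semaphorins, which span the membrane and signal mainly through B-type plexins, were called lower at Nut1h in 3 of 4 cases, where 32.3% of all tested genes were called lower, and none of the 4 was called at Nut10h, where 29.0% were called. With the GC-content offset SEMA4B alone of the 4 was called lower at Nut1h, and SEMA4C was called lower at Nut10h. In that fit 24.9% of all tested genes were called lower at Nut1h and 22.5% at Nut10h. SEMA4B (chr15:90703836-90772911, plus strand) had the largest Nut1h difference of the 10 without the offset, with which that of SEMA3C, at -0.76, was larger. It was counted at 3509 and 3235 at Nut0h, 1044 and 1196 at Nut1h, and 3737 and 3183 at Nut10h. Both Nut1h libraries lay far below the rest, and the Nut0h and Nut10h libraries overlapped. SEMA4B had a log2 fold change of -1.59 ± 0.11 at Nut1h and of 0.04 ± 0.11 at Nut10h. With the offset the Nut1h value was -0.67 and stayed called, and 880 genes of like GC content had a median of -0.92.

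SEMA4C (chr2:97525455-97536494, minus strand), a ligand of PLXNB2, was counted at 1663 and 1566 at Nut0h, 909.0 and 1035 at Nut1h, and 1382 and 1414 at Nut10h. The 3 groups did not overlap, Nut1h being the lowest and Nut0h the highest. On the log2 scale the difference was -0.73 ± 0.10 at Nut1h, and 0.12 and not called with the offset. At Nut10h it was -0.21 ± 0.10 and not called, and the value of -0.22 with the offset was called lower. SEMA4F (chr2:74881355-74910980, plus strand) was counted at 719.9 and 799.2 at Nut0h, 578.9 and 581.4 at Nut1h, and 867.2 and 862.6 at Nut10h, again without overlap between the groups. Its log2 fold change of -0.39 ± 0.10 at Nut1h became -0.12 with the offset and lost the call, and its 0.19 ± 0.10 at Nut10h was not called.

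SEMA4D (chr9:91975702-92113045, minus strand), the ligand of PLXNB1 that is also known from lymphocytes as CD100, was called in no comparison without the offset. Between the treated groups its difference was the smallest of the 10 in that fit. Against Nut0h, those of SEMA3C at Nut1h (0.05) and of SEMA3A (0.03) and SEMA4B (0.04) at Nut10h were smaller. SEMA4D was counted at 1176 and 1063 at Nut0h, 1051 and 1035 at Nut1h, and 1034 and 1066 at Nut10h. The treated groups overlapped and 1 Nut10h library lay within the Nut0h range. SEMA4D differed on the log2 scale by -0.10 ± 0.10 at Nut1h (0.10 with the offset), by -0.09 ± 0.10 at Nut10h and by 0.01 ± 0.10 between the treated groups, none of them called. The value between the treated groups was -0.24 and called lower with the offset. Genes on the other strand share 84 of its exonic bases.

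**Figure D3:**
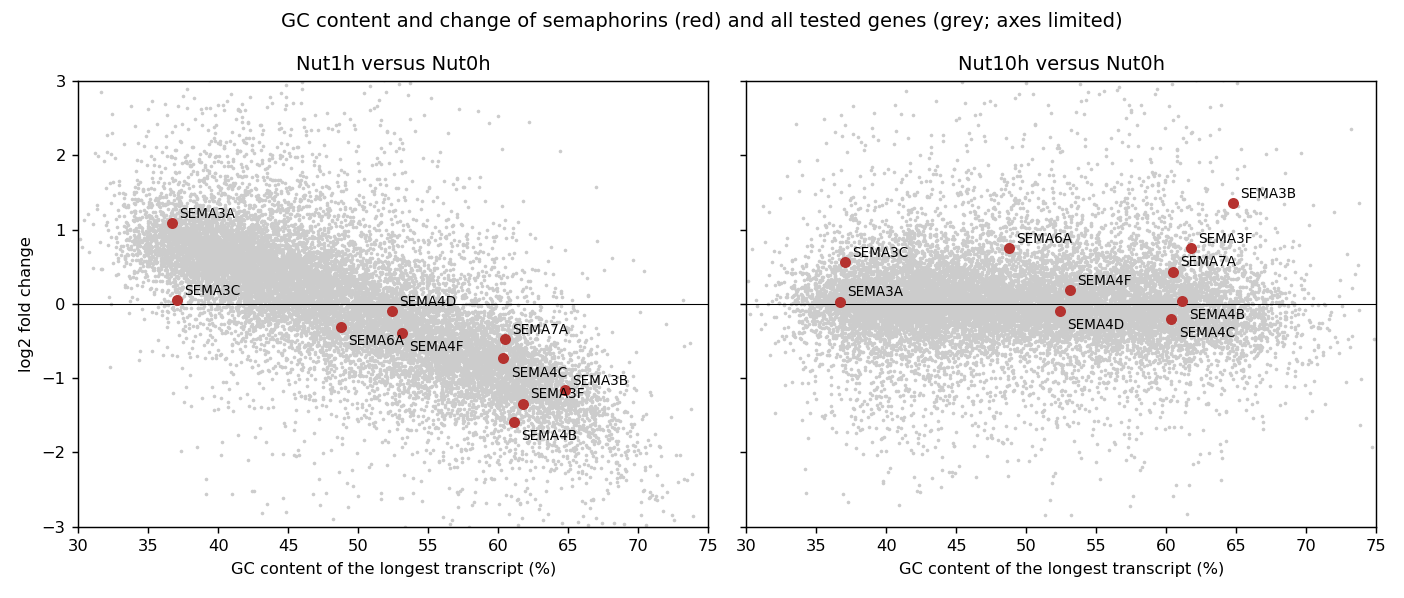
GC content of the longest transcript (x axis, percent) against the log2 fold change (y axis) for all tested genes with a GC content (grey, axes limited to the range shown) and the 10 semaphorins (red). At Nut1h the grey cloud slopes down and the 5 semaphorins above 60% GC lie below 0, and at Nut10h the cloud is level and SEMA3B, SEMA3F, SEMA7A, SEMA3C and SEMA6A lie in its upper part.

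All 5 semaphorins above 60% GC were called lower at Nut1h. Of the other 5, SEMA4F was called lower, SEMA3A higher and 3 were not called. Among all tested genes, 32.3% were called lower and 34.5% higher at that time. For each of the 5 above 60% GC, the upper quartile over genes of like GC content was itself below 0, at -0.94 to -0.54. At Nut1h 4 of the 10 lay within the interquartile range, which by its definition holds 50% of the genes, of the log2 fold changes of genes within 1 percentage point of their GC content, 4 lay below it (SEMA3C, SEMA3F, SEMA4B and SEMA6A) and 2 above it (SEMA3A and SEMA7A). At Nut10h the 5 called semaphorins lay above that range and the other 5 within it.

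Per kilobase of transcript, SEMA4B was the most abundant semaphorin at Nut0h, at a mean of 27.0 CPM (counts scaled to the library) per kilobase. It was followed by SEMA7A at 15.4, SEMA4C at 13.0, SEMA3F at 11.8, SEMA4D at 5.97, SEMA3B at 5.25, SEMA4F at 3.79, SEMA3C at 3.13, SEMA3A at 2.33 and SEMA6A at 1.31, and no neighbours in this order overlapped between libraries. At Nut10h SEMA4B was again first at 27.7, SEMA7A at 20.8 and SEMA3F at 19.8 overlapped, and SEMA3B at 13.4 stood above SEMA4C at 11.2. SEMA3A at 2.38 and SEMA6A at 2.21 closed that order and overlapped. At Nut1h SEMA7A led the 10 at 11.1 and SEMA4B followed at 8.97. SEMA3A moved up to the fifth place at 4.96, with SEMA3F at 4.65 just below. SEMA6B, which is not among the 10, had a higher mean than any of them, at 38.5 (Nut0h), 12.5 (Nut1h) and 29.1 (Nut10h). At Nut10h its libraries overlapped those of SEMA4B. The transcript length used is that of the longest annotated transcript, so that these levels shift for a gene that uses a shorter one.

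Over the 6 libraries, the profiles of SEMA4F and SEMA7A were the closest pair among the 10, with a root mean square difference of 0.175 in centred log2 CPM, and that of SEMA3B and SEMA3F was 0.243. The genes with the profile most like that of SEMA3B among 11575 tested genes of at least 100 normalized counts were C1orf116 at 0.066, LRP10 at 0.073 and ARVCF at 0.080. Their log2 fold changes were -1.23, -1.16 and -1.10 at Nut1h and 1.30, 1.24 and 1.19 at Nut10h. With the offset they were -1.10, -0.61 and 0.28 at Nut1h and 1.25, 1.21 and 1.23 at Nut10h.

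Among 10 other semaphorins, 6 passed the filter, of which 2 rose, 1 fell and 3 were not called at Nut10h, and 3 fell at Nut1h. Of all tested genes, 29.0% were called at Nut10h (14.1% higher and 14.9% lower) and 66.9% at Nut1h (34.5% higher and 32.3% lower). With the GC-content offset 1 of the 6 was called higher and 1 lower at Nut1h, against 20.5% and 24.9% of all tested genes. The median log2 fold change of these 6 was 0.10 at Nut10h and -0.52 at Nut1h, the latter -0.15 with the offset. SEMA3G, a secreted ligand of NRP2 known from endothelium, was counted at 164.3 and 135.2 at Nut0h, 141.5 and 156.1 at Nut1h, and 468.9 and 423.4 at Nut10h. It rose by 1.57 ± 0.14 on the log2 scale at Nut10h (adjusted p = 1.1e-06), a 2.98-fold change that is larger than that of SEMA3B, with no library of Nut10h near the other groups. SEMA3G was not called at Nut1h (-0.01 ± 0.16), but was called higher there with the offset, by 0.70. SEMA3E, a ligand of PLXND1, rose by 0.84 ± 0.24 at Nut10h from a mean of 39.5 normalized counts, a call lost without Nut0h replicate 1 or without Nut10h replicate 2. The rarely counted SEMA3D had 45.4 and 54.5 normalized counts at Nut0h and 20.3 and 47.5 at Nut10h and was not called there, at -0.55, but was called lower without Nut10h replicate 2, at -1.28.

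SEMA6B, the most highly counted of all the semaphorins, was at 5814 and 4408 at Nut0h, 1558 and 1763 at Nut1h, and 4370 and 3363 at Nut10h. It fell by 1.62 on the log2 scale at Nut1h, and the value was 0.14 and not called with the offset. Its log2 fold change at Nut10h was -0.40 ± 0.14, called lower at an adjusted p of 0.044 and lost when any of 4 libraries was left out (Nut0h replicate 1, either Nut1h replicate, or Nut10h replicate 2). SEMA4G and SEMA6C fell by 1.02 and 1.25 at Nut1h and were not called at Nut10h, and with the offset SEMA4G was still called at -0.29 while SEMA6C was not. SEMA4A, SEMA5A, SEMA5B and SEMA6D did not pass the filter.

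Of the plexins, the receptors that carry the semaphorin signal into the cell, 8 of 9 were tested. At Nut10h 4 rose and 4 were not called, against 29.0% of all tested genes called and 14.1% called higher, and all 3 B-type plexins were among those that rose. PLXNB3, a receptor of SEMA5A, was counted at 239.6 and 237.6 at Nut0h, 139.5 and 119.6 at Nut1h, and 1991 and 1762 at Nut10h. It rose by 2.97 ± 0.12 on the log2 scale at Nut10h (adjusted p = 8.9e-10), a 7.86-fold change that was the largest of any gene in these lists at that time and was 3.01 with the offset. PLXNB1, the receptor of SEMA4D, rose from 1465 and 1495 normalized counts to 3834 and 3749, by 1.36 ± 0.09 (adjusted p = 7.7e-08). PLXNB2, the receptor of SEMA4C, had 21764 and 19980 normalized counts at Nut0h and 35906 and 29776 at Nut10h, a rise of 0.65 ± 0.11. PLXNA2 rose by 0.83 ± 0.25 from a mean of 37.1 normalized counts, a call lost without Nut0h replicate 1 or without Nut10h replicate 2. PLXND1, at -0.28 and not called, was called lower with the offset and without Nut10h replicate 1.

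At Nut1h 7 plexins fell and 1, PLXNC1, rose, against 66.9% of all tested genes called, 32.3% lower and 34.5% higher. With the offset 1 plexin was called lower and 2 higher, against 24.9% and 20.5% of all tested genes. PLXNC1 is the receptor of SEMA7A and the only tested plexin below 50% GC, at 47.4%, and its rise of 0.87 ± 0.29 rested on Nut0h replicate 1 and Nut1h replicate 1, without either of which it was not called, and was 0.67 and not called with the offset. The largest falls were those of PLXNA3 by 1.05, PLXND1 by 1.03, PLXNA2 by 1.00 and PLXNB2 by 0.95 on the log2 scale, that of PLXNA2 not called without Nut0h replicate 2 or without Nut1h replicate 1. With the offset PLXNA3 was still called lower at -0.45, PLXND1 was at 0.06, PLXNB2 at 0.16 and PLXNA2 at -0.65, none of them called, and PLXNB1 and PLXNB3 were called higher at 0.56 and 0.42.

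Of the neuropilins and the other receptors or co-receptors, 9 of 11 were tested. At Nut10h 3 rose and 6 were not called, against 29.0% of all tested genes called and 14.1% called higher. NRP2, the co-receptor of SEMA3F, was counted at 39.6 and 29.1 at Nut0h, 16.1 and 16.4 at Nut1h, and 88.9 and 106.1 at Nut10h. It rose by 1.50 ± 0.25 at Nut10h (adjusted p = 3.8e-04), with the 3 groups apart and in the order seen for SEMA3F. NRP1, the co-receptor of SEMA3A, had 202.0 and 183.1 normalized counts at Nut0h and 149.9 and 200.1 at Nut10h and was not called there. At Nut1h it was counted at 141.5 and 122.1 and fell by 0.54 ± 0.17 (-0.95 with the offset), a call lost without Nut1h replicate 2. The 2 other calls were weak: KDR had 7.7 and 61.4 normalized counts in the Nut10h libraries and its log2 fold change of 2.27 was 0.13 without Nut10h replicate 2, and CD72, at 20.3 and 19.5 normalized counts, was not called when any 1 of the 6 libraries was left out. At Nut1h 3 rose and 4 fell, against 66.9% of all tested genes called, 34.5% higher and 32.3% lower, and with the offset 1 was called higher and 3 lower, against 20.5% and 24.9%. ITGB1, an integrin chain that takes part in SEMA7A binding, rose by 0.96 ± 0.09 and was still called with the offset at 0.25, and NRP2 fell by 1.08 ± 0.33 (-1.04 with the offset), a call lost without Nut0h replicate 1 or without Nut1h replicate 1. ITGA1 rose by 1.01, also lost without either of those libraries, and was at 0.27 and not called with the offset. ERBB2 fell by 0.89 and was called at -0.27 with the offset.

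**Figure D4:**
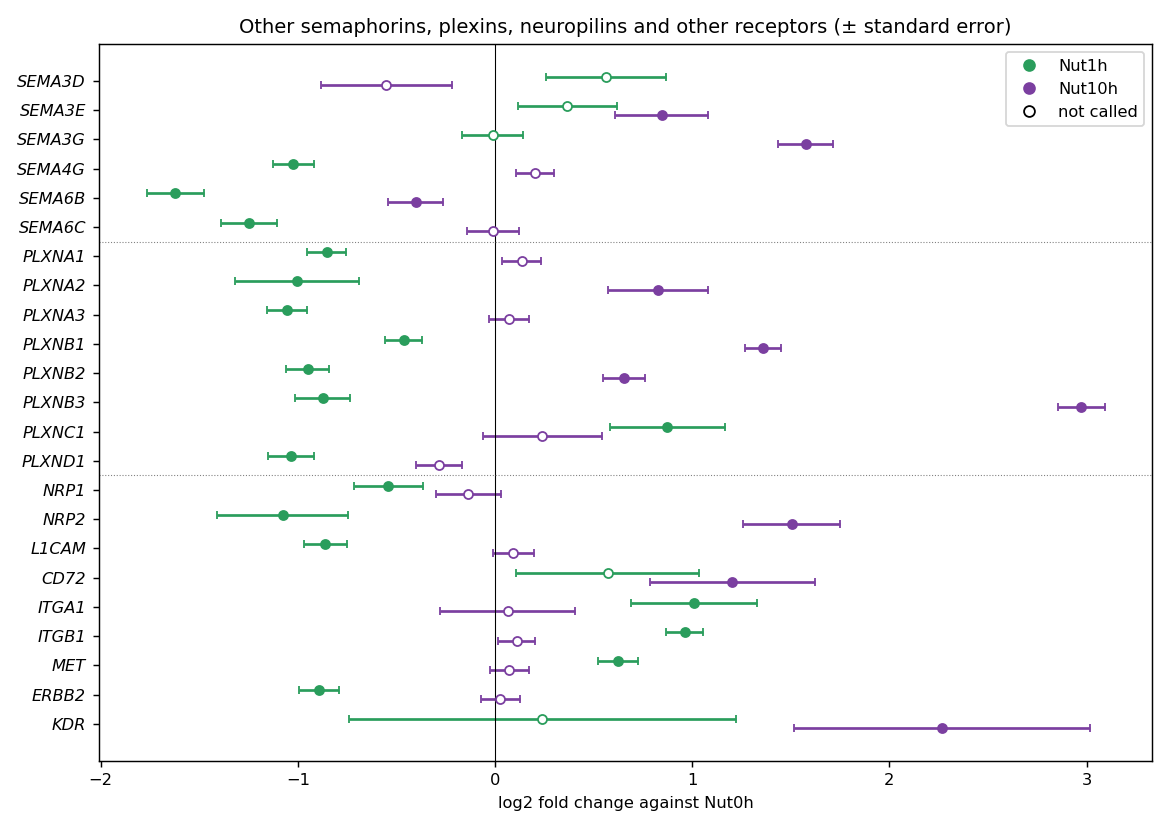
Log2 fold changes against Nut0h (x axis) with standard errors of the tested other semaphorins, plexins, and neuropilins and other receptors (separated by dotted lines) at Nut1h (green) and Nut10h (purple); open points were not called. PLXNB3, SEMA3G, NRP2 and PLXNB1 stand to the right at Nut10h, and KDR has the widest error bar.

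Of the intracellular effectors of plexins and neuropilins, 21 of 22 were tested, and 5 rose, 3 fell and 13 were not called at Nut10h, where 29.0% of all tested genes were called, 14.1% higher and 14.9% lower. With the offset 10 effectors were called lower there, against 22.5% of all tested genes. The 3 that fell without it belong to the collapsin response mediator family, which links semaphorin signalling to microtubules. DPYSL5 went from 1134 and 1128 normalized counts at Nut0h to 554.0 and 497.9 at Nut10h, a fall by 1.11 on the log2 scale (adjusted p = 2.2e-06). DPYSL2 went from 1135 and 1269 to 554.0 and 670.0, a fall by 0.97, and DPYSL3 fell by 0.40, a call lost without Nut0h replicate 2 or without Nut10h replicate 1. DPYSL4, of the same family, rose by 1.00 ± 0.16, from 303.4 and 209.4 to 547.2 and 476.4. CRMP1 did not pass the filter, with 0 counts at Nut0h and Nut1h and 2.9 and 41.9 normalized counts in the Nut10h libraries. The actin-oxidizing enzyme MICAL2 rose by 0.55 ± 0.10.

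At Nut1h 4 effectors rose and 10 fell of the 21, against 66.9% of all tested genes called, 34.5% higher and 32.3% lower. With the offset 5 were called higher and 6 lower, against 20.5% and 24.9%. The small GTPase RRAS, which plexins switch off, fell by 1.83 on the log2 scale, from 2563 and 2115 normalized counts to 630.1 and 685.9, and was still called at -0.69 with the offset. The kinase FES fell by 1.39 and was at -0.39 with the offset. DPYSL4 fell by 1.18 and LIMK1, the kinase that inactivates cofilin, by 0.93. With the offset LIMK1 was called at -0.56 and DPYSL4, at -0.12, was not.

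Of the 7 proteases that cut semaphorins, all tested, MMP14 and ADAM17 rose at Nut10h and 5 were not called. Of all tested genes, 29.0% were called then and 14.1% were called higher. MMP14, a membrane metalloprotease that sheds SEMA4D, was counted at 748.9 and 622.6 at Nut0h, 491.6 and 484.5 at Nut1h, and 1133 and 1208 at Nut10h, a rise of 0.77 ± 0.11 (adjusted p = 1.2e-04). ADAM17 rose by 0.33 ± 0.10, a call lost when any of 4 libraries was left out (Nut0h replicate 1, either Nut1h replicate, or Nut10h replicate 2). FURIN, the convertase that processes class 3 semaphorins, fell by 0.95 at Nut1h and was at 0.02 with the offset. ADAM10, a sheddase, rose by 0.77 at Nut1h and was at -0.02 with the offset. At that time MMP14 fell by 0.49 and ADAM17 rose by 0.44, and with the offset MMP14 was at 0.22, not called, and ADAM17 at -0.31, called lower.

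Over these 5 lists together, 51 of 59 genes were tested. At Nut10h 16 rose, 4 fell and 31 were not called, and at Nut1h 10 rose, 27 fell and 14 were not called. Of all tested genes, 14.1% were called higher and 14.9% lower at Nut10h, and 34.5% higher and 32.3% lower at Nut1h. The 16 that rose at Nut10h were not a fixed number. Over the other settings that left out no single library they ranged from 12 (DESeq2) to 17 (the block with crossed Nut1h numbers). Between the treated groups 25 were higher and 11 lower at Nut10h, against 34.2% and 33.7% of all tested genes, led by PLXNB3 at 3.85, NRP2 at 2.58 and DPYSL4 at 2.18 on the log2 scale (2.59, 2.48 and 1.13 with the offset). With the GC-content offset the genes that fell at Nut1h numbered 13 of 51 and those that fell at Nut10h 12, near the 24.9% and 22.5% of all tested genes called lower in that fit.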

How the data were processed

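RNA-seq libraries of HCT116 cells at Nut0h, Nut1h and Nut10h were analysed, with 2 biological replicates per group. Per the labels' processing notes, the authors trimmed reads with Trim Galore 0.6.6, aligned them to GRCh37.p13 with STAR 2.7.0f and counted them per gene with featureCounts (Subread 2.0.0). The deposited values are raw counts for 57905 genes, without normalization. Strand setting and handling of multimapping reads are not given in the sources used here. The authors' table of comparisons (fold changes and p-values from DESeq2) was used only for gene symbols, and PECAM1, a listed endothelial marker, was not analysed here.

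Genes were filtered with filterByExpr (16565 kept), scaled by TMM and tested by the quasi-likelihood method of edgeR 4.0.16 (limma 3.58.1 and R 4.3.3) over all 6 libraries, with the group as the only term and 3 residual degrees of freedom. P-values were Benjamini-Hochberg adjusted over all tested genes, and a gene was called at an adjusted p of at most 0.05. A normalized count is the count over the effective (TMM-scaled) library size, times the mean of that size. Values after ± are standard errors of log2 fold changes. Profiles used log2(CPM + 1). GC content and length are those of the longest transcript in the GENCODE annotation lifted to GRCh37, known for 97.4% of tested genes. The GC-content offset is a loess trend (span 0.4) per library. Promoters and their starts are from RefSeq on GRCh38.p14, and their positions are printed on that build. An exact match of their sequence to GRCh37 was used to find the start nearest the annotated 5′ end. The test was tried on simulated data.

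The semaphorins and the gene lists were chosen with earlier results of these data known. Genes were named by rule: the 10 semaphorins, other semaphorins with at least 10 counts in a library, and up to 4 called genes per list and comparison by size of the log2 fold change, with CDKN1A and MDM2. PLXNC1, NRP1, CRMP1 and DPYSL3 were added after their values were seen. The alternatives were DESeq2's size factors, no or a stricter low-count filter (1 CPM in 4 libraries), DESeq2 1.42.0, the replicate number as a block, GC-content and length offsets, fits on the compared groups only, and each library left out.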

Additional observations from a re-analysis of the deposited data

Results flagged for a closer look

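For 3 of the 10 semaphorins the differences from Nut0h were called in opposite directions, lower at Nut1h and higher at Nut10h. The share of all tested genes with such a pair of calls is not given here. Singly, 32.3% of them were called lower at Nut1h and 14.1% higher at Nut10h. For genes chosen in this way a call between Nut10h and Nut1h is nearly bound to follow, so that only the size of the difference between the times is described. That difference was 2.52 on the log2 scale for SEMA3B, 2.09 for SEMA3F and 0.91 for SEMA7A. The 2 comparisons with Nut0h share their control libraries. With the GC-content offset the difference was 1.29 for SEMA3B and 1.11 for SEMA3F, both still called, and 0.03 for SEMA7A, which was not called. Under that offset SEMA3F, SEMA3C and SEMA6A were called lower at Nut1h and higher at Nut10h, and SEMA3B and SEMA7A were not. In that fit 24.9% of all tested genes were called lower at Nut1h and 16.8% higher at Nut10h.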

How the results depend on the processing

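The calls of the 5 semaphorins higher at Nut10h held under all 16 alternatives, those that left out a library included. With the GC-content offset, without and with the replicate number as a block, the semaphorins called numbered 2 and 2 higher at Nut1h (1 without), 1 and 1 lower at Nut10h (0 without), and 3 and 3 lower at Nut10h than at Nut1h (1 without). The genes of the 5 pathway lists called lower numbered 13 and 13 at Nut1h and 12 and 10 at Nut10h. Under the same 2 settings, log2 fold changes turned for SEMA3B (0.10 and 0.10), SEMA3C (-0.76 and -0.77), SEMA4C (0.12 and 0.12), SEMA7A (0.39 and 0.39) and, not called in any of these fits, SEMA4D (0.10 and 0.10) at Nut1h, and between the treated groups for SEMA4C (-0.34 and -0.34) and SEMA4D (-0.24 and -0.24). The cause was not tested. The offset with the block left 7258 genes called at Nut1h, against 11077. Pathway genes called lower at Nut10h, 4 in the fit reported, numbered 8 with no low-count filter and from 3 to 7 when 1 library was left out, 7 being without Nut10h replicate 1.

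The labels give same-numbered replicates only a number in common, and whether they were handled together is not stated. Deviations of same-numbered replicates from the group means correlated at -0.309 between Nut0h and Nut1h, 0.446 between Nut0h and Nut10h and -0.279 between Nut1h and Nut10h. The block alone left 10979, 4893 and 11189 genes called in the 3 comparisons, against 11077, 4810 and 11246, and the same numbers of semaphorins in each direction. With the Nut1h numbers crossed, a setting chosen after seeing the data, the block gave 7631 genes called at Nut10h, 1 semaphorin (SEMA4C) lower and 11 pathway genes lower there. At Nut1h it gave 7 semaphorins lower, SEMA6A among them.

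With 2 libraries a group, NRP2, PLXNA2, SEMA3E, KDR and CD72, all at low counts, had standard errors of 0.23 or more. The Nut10h replicates of KDR also lay far apart, at 7.7 and 61.4 normalized counts.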
